A study of Drosophila melanogaster with 48 samples.

Results

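Zelda (Zld) binding was examined at 10 genes for T-box and GATA transcription factors in brains of Drosophila melanogaster larvae, out of 13922 protein-coding genes on the 6 chromosome arms of the gene table used. The 7 T-box genes were bi, org-1, Doc1, Doc2, Doc3, mid and H15, and the 3 GATA genes were pnr, srp and grn. Each gene was taken with 5 kb on either side, and every peak summit of the deposited lists inside that window was counted. At these genes the list called UAS-HA-Zld held 67 summits and the list called brat held 29, of which bi alone had 38 and 19. The whole lists held 16252 and 13826 summits.

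Zld was profiled in brains by CUT&RUN, in which a nuclease tethered to an antibody releases the DNA around the bound protein. The study held 48 samples with several antibodies, 6 of them from brains and 4 of these anti-Zld. The brat and UAS-HA-Zld conditions had 2 anti-Zld samples each, with 50 brains in each reaction, and the lists number 1 per condition. Larvae of both conditions grew at 18 °C to the third instar and were then moved to 33 °C for 24 h. All 4 anti-Zld samples carry the same genotype label, so only the sample titles tell the conditions apart. The label gives brat11, a mutant allele of brat, which encodes a translational repressor that limits neural stem cells, over the deficiency DF. It further gives Tub-Gal80ts, a temperature-sensitive repressor of Gal4, the UAS-HA-Zld transgene for an HA-tagged Zld, and WorGal4, which drives it in neuroblasts. The 2 IgG brain samples, labelled brat11/bratDF, have no list here. The labels name type II neuroblasts as the cell type. A peak list cannot check that name, and more bound cells and more binding per cell cannot be told apart in pooled brains.

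T-box proteins share a DNA-binding domain first described in Brachyury, and GATA factors bind DNA through zinc fingers. In flies, the genes of both families are best known for roles in the embryonic ectoderm, heart, blood and gut and in imaginal discs, and bi also for the optic lobe, from which it has its other name, optomotor-blind. Zld is a pioneer factor, a protein that binds closed chromatin and makes it accessible, and is best known for activating the first genes transcribed in the embryo.

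Of the 10 genes, 7 had more summits in UAS-HA-Zld than in brat, 1 (mid) had fewer, and 2 (org-1 and H15) had equal numbers. Among all protein-coding genes 24.4% had more and 25.4% had fewer, with a median difference of 0 summits against 2 summits over the 10 genes. A summit is called shared here when its peak overlaps a peak of the other list by at least 1 bp, and otherwise UAS-HA-Zld-only or brat-only. A UAS-HA-Zld-only summit was found at 7 genes (bi, Doc1, Doc2, Doc3, pnr, srp and grn), where the share among all protein-coding genes was 22.9%. A brat-only summit was found at 0 of the 10, against 22.0% of all genes. For the 7092 genes within the length range of the 10, these backgrounds were 26.2% and 26.4%. This range, 2054 to 72792 bp, is wide and does not match the genes for length.

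The UAS-HA-Zld-only summits at the 10 genes numbered 30 of 67, or 44.8%, where 28.0% of all UAS-HA-Zld summits were unmatched. All 29 brat summits at these genes were shared, and 18.1% of all brat summits were unmatched. A brat summit was present at 6 of the 10 genes and a UAS-HA-Zld summit at 9, and each share was 56.7% among all genes. Doc1, pnr and srp had UAS-HA-Zld summits and no brat summit, a state found in 6.94% of all genes and in 6.06% of those in the same length range. The reverse state, also found in 6.94% of all genes, occurred at none of the 10. The count of 0 brat-only summits became 1 at a threshold of at least 5 on the −log10 q scale and 2 when summits had to lie within 250 bp, each time at bi. Of the 30 UAS-HA-Zld-only summits, 10 were left without those beside peak numbers absent from the brat list, and the share left over the whole list was not computed. With 1 list per condition there is no spread between replicates, and none of these differences was tested.

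**Figure D1:**
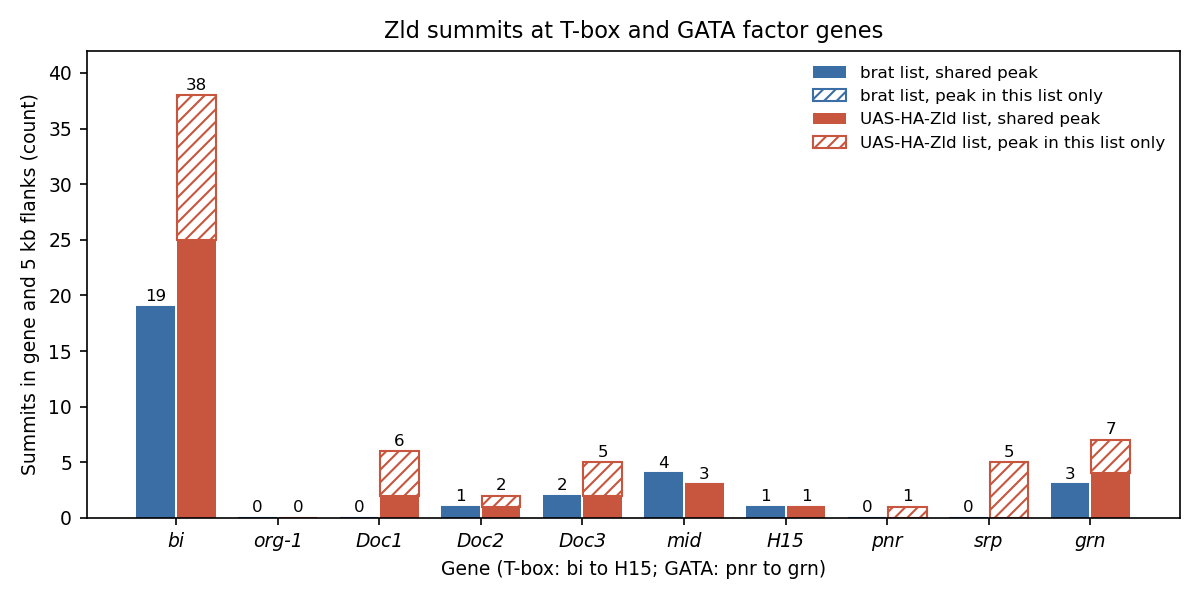
Number of Zld summits (vertical axis, count) in each of the 10 genes with 5 kb flanks, for the brat list (blue) and the UAS-HA-Zld list (red). Solid bars are summits in shared peaks and hatched bars are summits in peaks of that list only. The hatched part is 13 summits at bi and 5 at srp, and no blue bar has a hatched part.

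The gene bi, a T-box factor that acts in wing and optic lobe development, spans 72.8 kb on chromosome X (dm6, 4412856 to 4485647) and held most of the summits. It had 19 brat summits in 12 peaks and 38 UAS-HA-Zld summits in 20 peaks, 13 of the latter summits being UAS-HA-Zld-only. A difference of at least this size was found at 21 protein-coding genes, or 0.151%, bi among them, without matching for gene length. The difference of 19 summits became 7 with each peak counted once at its strongest summit. It became 8 without unmatched summits beside absent peak numbers. Without bi, the other members had 10 brat and 29 UAS-HA-Zld summits. A non-coding gene, lncRNA:CR32773 (4387676 to 4611385), overlaps all of bi and its flanks.

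Both lists had their strongest bi summits in overlapping peaks, 27.4 kb (brat) and 27.3 kb (UAS-HA-Zld) inside the lower-coordinate end of the gene. There the brat summit at 4440256 had a fold enrichment of 14.6, from a pileup of 991 fragments over a background of 67.1. Fold enrichment is the authors' own value for each peak, pileup over background with 1 added to each, and pileup and background were solved from it and the p-value. The UAS-HA-Zld summits at 4440129 and 4440295 had folds of 10.7 and 10.6, from pileups of 1114 and 948. Fold values of the lists stand side by side here and are not compared as a change.

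The UAS-HA-Zld-only summits were unevenly placed along bi. From 48.5 to 72.8 kb above the lower end, brat had 3 summits, all shared, and UAS-HA-Zld had 9, of which 6 were UAS-HA-Zld-only. In the 5 kb above the upper end brat had 0 and UAS-HA-Zld had 2, both UAS-HA-Zld-only. All UAS-HA-Zld-only summits of these stretches lay beside absent brat peak numbers, and the peak 4471551 to 4472587 held several of them. From 24.3 to 48.5 kb, brat had 8 and UAS-HA-Zld had 15, of which 2 were UAS-HA-Zld-only. Lower down, the first 24.3 kb held 6 brat and 9 UAS-HA-Zld summits, and the 5 kb below the gene held 2 and 3.

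The 13 UAS-HA-Zld-only summits at bi had folds from 1.42 to 3.77, below the strongest shared ones. The 3 with the highest −log10 q were spread over both flanks and the gene. The first, at 4408150 in the peak 4407558 to 4408329, lay 4.71 kb below the lower end with a fold of 3.63 (pileup 147 over 39.8). The second, at 4489385 in the peak 4489248 to 4490077, lay 3.74 kb above the upper end with a fold of 3.77 (134 over 34.8). The third, at 4471801 in the peak 4471551 to 4472587, lay inside the gene with a fold of 3.28 (119 over 35.6).

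Part of the difference at bi lay within shared peaks. The UAS-HA-Zld peak 4452899 to 4455017 was 2119 bp wide and held 6 summits with folds up to 8.91, at 4454176. The overlapping brat peak, 4453011 to 4453518, held 2. At the shared peak nearest the upper end, the brat peak 4480064 to 4480452 had a fold of 4.68 (125 over 25.9) and the UAS-HA-Zld peak 4480125 to 4480414 had a fold of 1.88 (67 over 35.1).

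**Figure D2:**
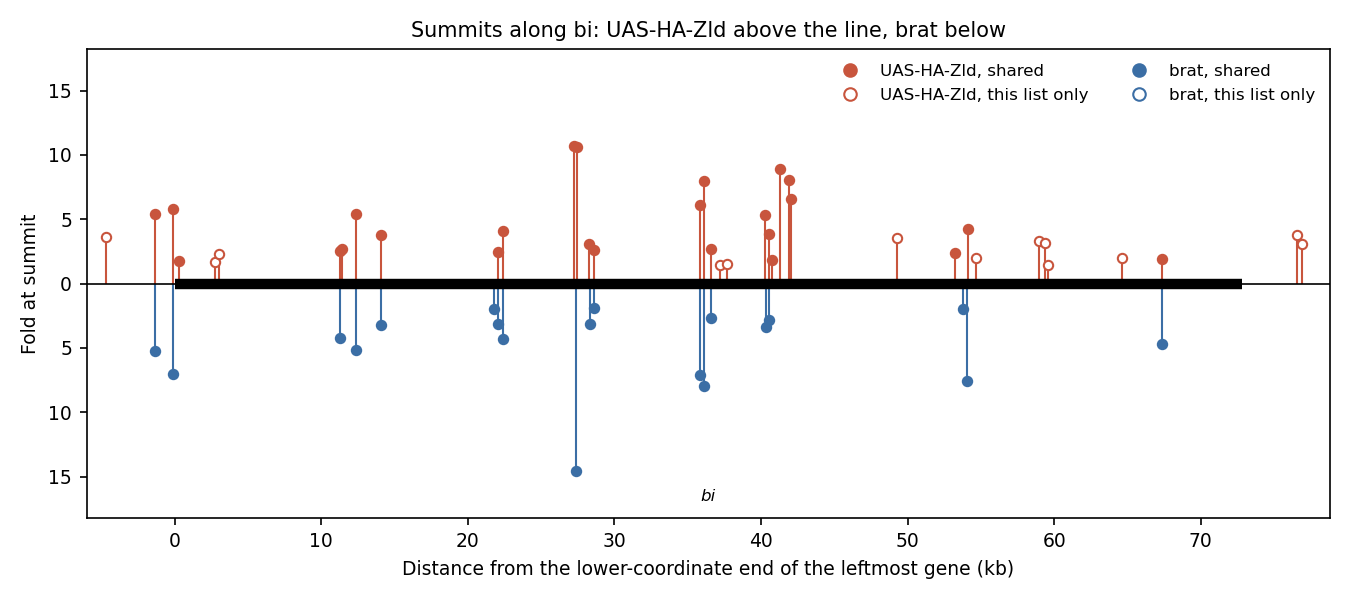
Summits along bi, with distance from the lower-coordinate end of the gene in kb on the horizontal axis and the authors' fold enrichment on the vertical axis, UAS-HA-Zld above the line and brat below. The black bar is the gene, filled points are shared summits and open points are UAS-HA-Zld-only. The tallest point stands at 27.4 kb for brat and at 27.3 kb for UAS-HA-Zld, and 6 of the 9 UAS-HA-Zld points from 48.5 to 72.8 kb are open.

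Doc1, Doc2 and Doc3 are neighbouring T-box genes that act together in the amnioserosa, dorsal ectoderm and heart. With their flanks they cover 49.8 kb of arm 3L (9000196 to 9050042), where brat had 2 summits and UAS-HA-Zld had 12, 8 of them UAS-HA-Zld-only. No summit of either list lay between the windows of the genes.

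Doc1 (9041375 to 9045042) had 0 brat summits and 6 UAS-HA-Zld summits. A gene with no brat summit and at least 6 UAS-HA-Zld summits was found 26 times, or in 0.187% of all genes. Of these 6 summits, 4 were UAS-HA-Zld-only and lay in a pair of peaks at the lower end of the gene. The peak 9040975 to 9041653 spanned that end, with summits at 9041147 (fold 9.18, pileup 723 over 77.9), 228 bp outside the gene, and at 9041544 (fold 6.65, 375 over 55.6). A non-coding gene, lncRNA:CR46451 (9036594 to 9040929), ends just below this peak. The peak 9042029 to 9042717 lay inside the gene, with summits at 9042474 (fold 4.52) and 9042155 (fold 2.79). The other 2 summits belonged to a wide shared peak, 9049597 to 9052639, inside the neighbouring gene Argk1, whose nearest brat summit lay 0.67 kb beyond the window. Flanks of 10 kb take in that brat summit, and the difference of 6 summits at Doc1 then became 5. With each peak counted once at its strongest summit it became 2.

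Doc2 (9012686 to 9019246) had 1 brat and 2 UAS-HA-Zld summits. The UAS-HA-Zld-only summit, at 9019420 in the peak 9019305 to 9019584, had a fold of 3.38 (232 over 67.9) and lay 174 bp from the upper end. The shared summit between Doc3 and Doc2 falls in both windows and was counted once in the totals. It had a fold of 6.33 in brat (9010509, 240 over 37.1) and of 4.82 in UAS-HA-Zld (9010666, 343 over 70.4), and its nearest protein-coding gene is CG5194.

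Doc3 (9005196 to 9007249) had 2 brat and 5 UAS-HA-Zld summits. A shared summit lay at its lower end, 199 bp away in brat (9004997, fold 2.20, 114 over 51.2) and 177 bp away in UAS-HA-Zld (9005019, fold 6.02, 459 over 75.4). The UAS-HA-Zld-only peak 9002647 to 9003871 had summits at 9003555 (fold 8.80, 492 over 55.0) and 9002823 (fold 5.10, 325 over 62.9), and its nearest gene is CG5087. A weak UAS-HA-Zld-only summit at 9007514, in the peak 9007441 to 9007741, had a fold of 1.44 (104 over 72.1). It was the only UAS-HA-Zld-only summit within 500 bp of an end of Doc3, and it did not reach a −log10 q of 5.

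The T-box genes mid and H15, which act in the heart and in the ventral epidermis, lie near each other on arm 2L and showed no UAS-HA-Zld-only summit. At mid (5461639 to 5467610), brat had 4 summits and UAS-HA-Zld had 3, all in a pair of shared peaks. The strongest brat summit, at 5461389, had a fold of 17.3 and a pileup of 2070 fragments (95% Poisson interval 1982 to 2161) over 119, and ranked 93 by −log10 q in its list. In UAS-HA-Zld it stood at 5461409 with a fold of 10.1, 2127 over 210, and ranked 188. The other peak had 3 summits in brat with folds from 2.08 to 3.18, and 2 in UAS-HA-Zld with folds of 5.21 and 5.65.

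At H15 (5404280 to 5416593), each list had 1 summit, below the lower end of the gene. The brat summit at 5403693, 587 bp from that end, had a fold of 13.1 and a pileup of 3401 (3288 to 3517) over 258. In UAS-HA-Zld the summit at 5403710, 570 bp from it, had a fold of 4.70 and a pileup of 1821 (1738 to 1907) over 387. These intervals cover counting error only, and ranks in lists of unequal length show no change. Between the windows of H15 and mid, brat had 4 summits and UAS-HA-Zld had 8, of which 3 were UAS-HA-Zld-only.

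No summit of either list lay within 5 kb of org-1 (X, 8447691 to 8455069), a T-box gene that acts in muscle. The nearest was shared, 9.82 kb away in brat (8437875, fold 7.11) and 9.86 kb away in UAS-HA-Zld (8437833, fold 5.16), and its nearest gene is CG1440.

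The GATA genes had 3 brat summits and 13 UAS-HA-Zld summits, and 9 of the 13, or 69.2%, were UAS-HA-Zld-only, beside 28.0% of all UAS-HA-Zld summits. All 9 lay beside an absent brat peak number, 1 number shared by srp and pnr and 1 at grn. The gene srp, which acts in blood cells, fat body and endoderm, and pnr, which acts in dorsal ectoderm, heart and notum, are neighbours on arm 3R with GATAe between them. Over the 65.6 kb of these genes with their flanks (15981152 to 16046796), brat had 0 summits and UAS-HA-Zld had 6, all UAS-HA-Zld-only. The brat summits on either side, at 15973927 and 16049300, stood 75.4 kb apart.

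At srp (15986152 to 16004085), all 5 UAS-HA-Zld summits were UAS-HA-Zld-only and lay inside the gene. At least 5 UAS-HA-Zld summits with no brat summit were found at 56 protein-coding genes, or 0.402%. All 5, in 4 peaks, lay between the same pair of brat peaks, where only 1 brat number was absent. Leaving out summits beside absent numbers thus left 0 at srp, although these 4 peaks share that 1 number. The strongest, at 15989344 in the peak 15989058 to 15989734, lay 3.19 kb inside the lower end with a fold of 17.3 (819 over 46.4), the highest fold of any UAS-HA-Zld-only summit at the 10 genes. The summits at 15994384 and 15994514 had folds of 9.12 (416 over 44.7) and 6.37 (396 over 61.3). Those at 15993278 and 15988433 had folds of 5.70 (571 over 99.4) and 4.74 (208 over 43.1). A non-coding gene, lncRNA:CR44133 (15986181 to 15993665), overlaps srp where 3 of the 5 summits lie. At pnr (16026079 to 16041796) the single UAS-HA-Zld-only summit, at 16026024 in the peak 16025798 to 16026218, lay 55 bp below the lower end with a fold of 2.48 (342 over 137).

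The gene grn (3R, 8147368 to 8181444), which acts in ectodermal organs and in motor neurons, had 3 brat and 7 UAS-HA-Zld summits. The strongest was shared and lay above the upper end of the gene. It stood 364 bp from that end in brat (8181808, fold 15.9, 998 over 61.7, rank 415) and 401 bp from it in UAS-HA-Zld (8181845, fold 24.2, 2181 over 89.3, rank 42). A second shared peak lay inside the gene, with folds of 4.36 and 4.06 in brat and of 2.41, 4.15 and 3.61 in UAS-HA-Zld. The 3 UAS-HA-Zld-only summits were all inside the gene, at 8164581 (fold 6.88, 342 over 48.9), 8165307 (fold 2.36) and 8175938 (fold 2.24). All 3 lay in separate peaks beside the same absent brat number.

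**Figure D3:**
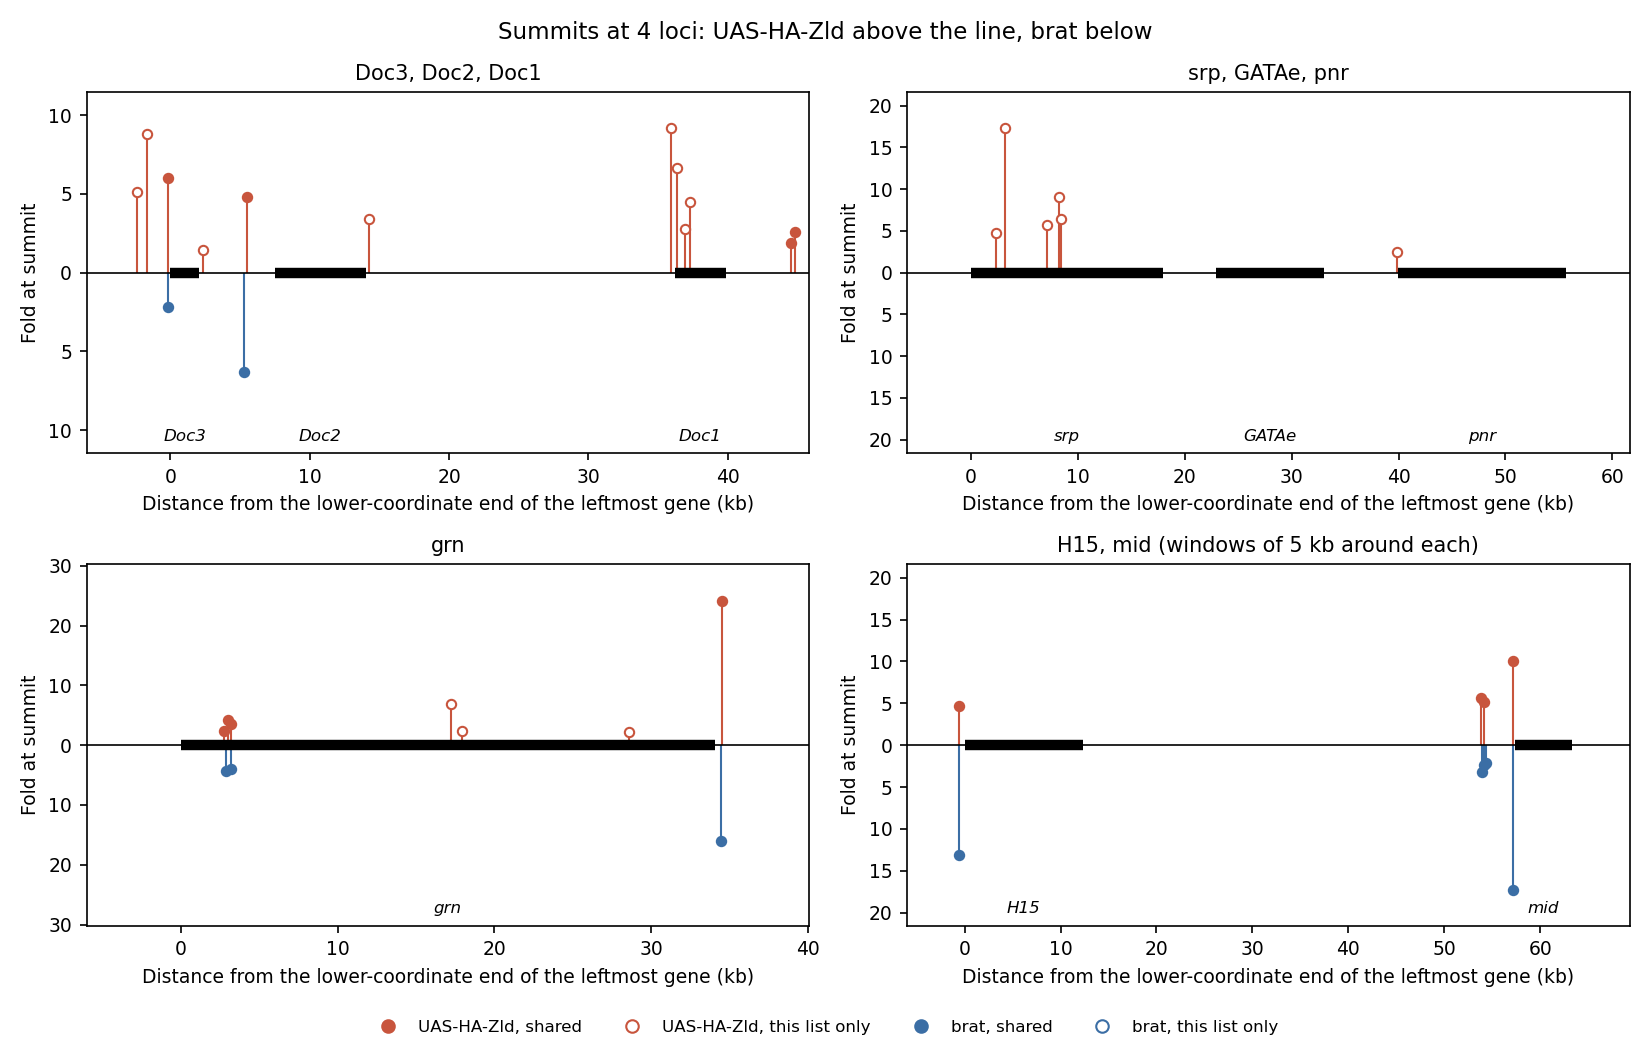
Summits at the Doc genes, at srp, GATAe and pnr, at grn, and in the windows of H15 and mid, with distance from the lower-coordinate end of the leftmost gene in kb against the authors' fold enrichment, UAS-HA-Zld above the line and brat below. Black bars are genes, filled points are shared summits and open points are in 1 list only. The 6 points over srp and pnr are open with none below the line, and all points at H15 and mid are filled.

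The other members of both families did not all follow the same order. The T-box gene byn (3L, 11927693 to 11935919), which acts in the hindgut, had 0 brat summits and 3 UAS-HA-Zld summits in the single UAS-HA-Zld-only peak 11925043 to 11926094. Their folds were 1.70, 7.97 and 5.33, and the peak lies inside the gene CG44837. GATAd (2L, 10333734 to 10339185) had 8 brat summits, 3 of them brat-only, and 4 UAS-HA-Zld summits, all shared. Its strongest brat summit, at 10335082, had a fold of 31.4 (2010 over 63.0), and the UAS-HA-Zld summit at 10335079 had a fold of 10.5 (983 over 92.8). The brat-only summits, with folds from 2.62 to 3.86, lie in the neighbouring genes CG31715 and Sps2, where 2 UAS-HA-Zld numbers are absent. GATAe (3R, 16009105 to 16019133), which acts in the gut, had no summit within 5 kb in either list. Its nearest were the UAS-HA-Zld summit at pnr, 6.89 kb away, and a brat summit 30.2 kb away.

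Within each list the summits at the 10 genes covered a wide range of strength. Shared brat summits had a median fold of 4.24 (range 1.89 to 17.3, n = 29), and all 11329 shared brat summits had a median of 3.87. For shared UAS-HA-Zld summits the median was 4.26 (1.77 to 24.2, n = 37), beside 3.78 over all 11695. The UAS-HA-Zld-only summits had a median fold of 3.33 (1.42 to 17.3, n = 30), beside 2.69 over all 4557. Their median background was 48.5 fragments against 54.7 over all UAS-HA-Zld-only summits, and their median peak width was 603.5 bp against 548 bp. Median pileup at the 10 genes was below that of the same class over the whole list in every case. For shared brat summits it was 129 against 170, over a median background of 28.2 against 42.4. Their median −log10 q was also lower, 39.7 against 45.8. Median −log10 q was higher for shared UAS-HA-Zld summits (64.5 against 63.8) and UAS-HA-Zld-only ones (30.9 against 23.3). The higher median folds thus went with lower backgrounds and not with higher pileups.

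**Figure D4:**
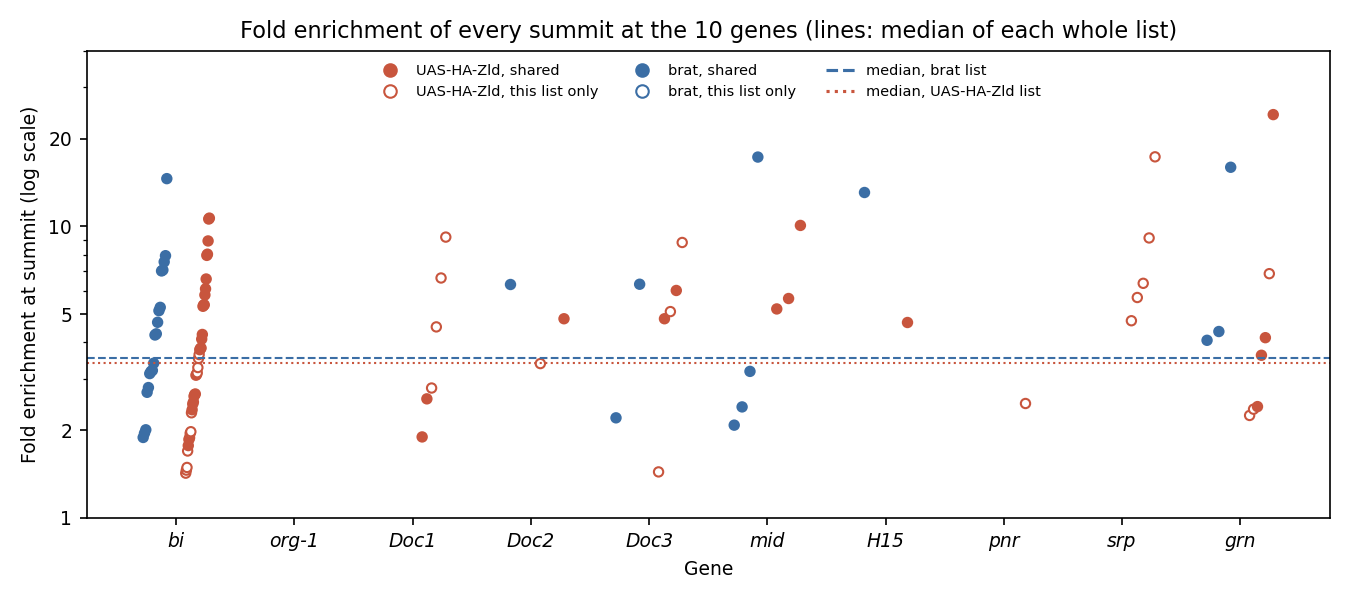
Fold enrichment (log scale) of each summit at the 10 genes, brat in blue and UAS-HA-Zld in red, filled for shared summits and open for UAS-HA-Zld-only ones. The dashed line at 3.54 and the dotted line at 3.40 are the medians of the whole brat and UAS-HA-Zld lists. All 5 points of srp are open and above the dotted line, and the highest point is the shared UAS-HA-Zld summit of grn at 24.2.

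Where the brat and UAS-HA-Zld peaks overlapped, most brat summits had a UAS-HA-Zld summit close by. The 29 brat summits lay a median of 20 bp from the nearest UAS-HA-Zld summit (range 1 to 311 bp), and 23 of them, or 79.3%, were within 50 bp. Over all 11329 shared brat summits the median was 25 bp and 65.1% were within 50 bp. Some UAS-HA-Zld summits in wide shared peaks lay farther from any brat summit, such as 1469 bp at 4454876 in bi. Of the 30 UAS-HA-Zld-only summits, 5 lay within 500 bp of an end of their gene, 20 elsewhere inside it and 5 elsewhere in the flanks. For the 37 shared UAS-HA-Zld summits these counts were 5, 25 and 7, and for the brat summits 4, 19 and 6. The gene table gives no strand, so starts, exons, introns and UTRs were not assigned.

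The lists differ in depth and in what they retain. The lowest background, 22.6 fragments for the brat list and 28.8 for UAS-HA-Zld, is the measure of depth at hand, since total read numbers are unknown. Peak names carry running numbers, and 19.5% of these numbers are absent from each list. At the Doc genes, 8 of the 8 UAS-HA-Zld-only summits lay where no brat number was absent between the neighbouring brat peaks. At bi this held for 2 of 13, and at pnr, srp and grn for 0 of 9. Between the brat peaks on either side of srp and pnr 1 brat number was absent. Without the UAS-HA-Zld-only summits beside absent brat numbers, UAS-HA-Zld had 47 summits at the 10 genes, 10 of them UAS-HA-Zld-only at 4 genes. The matching shares over the whole list and over all genes were not computed. Whether the 10 genes differ from the rest under this filter was therefore not tested. With UAS-HA-Zld scaled to the coverage of brat, an alternative added after the data were seen, it had 66 summits, 29 of them UAS-HA-Zld-only at 7 genes. What the absent numbers stood for is not known.

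The genes that work with these factors showed summits of both kinds. A list of 19 genes held partners of GATA factors, regulators of blood and heart, genes of the Dpp pathway and the wing, and segment polarity genes. It had 107 brat summits, of which 30 (28.0%) were brat-only, against 18.1% of all brat summits. It had 134 UAS-HA-Zld summits, of which 42 (31.3%) were UAS-HA-Zld-only, near the 28.0% of all UAS-HA-Zld summits. More UAS-HA-Zld summits were found at 10 of the 19, fewer at 6 and equal numbers at 3, with a median difference of 1 summit, where 24.4% of all protein-coding genes had more and 25.4% had fewer. A UAS-HA-Zld-only summit was present at 10 genes and a brat-only summit at 10, against 22.9% and 22.0% of all genes.

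The largest excess of UAS-HA-Zld summits on the list was at ush, which encodes a cofactor of GATA factors, with 18 brat and 31 UAS-HA-Zld summits, 10 of the latter UAS-HA-Zld-only. The largest deficits were at Chi, which encodes a cofactor of LIM-domain proteins, with 8 brat and 2 UAS-HA-Zld summits, and at sd, which encodes a DNA-binding partner of Vestigial, with 18 and 12. Hand, which encodes a heart and blood factor, had 5 brat summits, all brat-only, and 0 UAS-HA-Zld summits, with a strongest brat fold of 5.47. Absent UAS-HA-Zld numbers lay beside all brat-only summits of Hand, Chi and sd, 5 at Hand, 1 beside the 6 of Chi, and 1 or 2 beside the 7 of sd.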

How the data were processed

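CUT&RUN samples were grouped by their titles. The submitters' processing notes name the aligner Bowtie2, the peak caller MACS2, deepTools 3.5.1 and the build dm6. Control, filters and pooling of replicates were not given in the sources used here. Each deposited narrowPeak list gives the authors' fold enrichment (a ratio), integer score, and −log10 of the p-value and q-value per summit. The lists held 13826 summits (brat) and 16252 (UAS-HA-Zld), with smallest −log10 q of 1.31 and 1.30. Pileup and background were solved from the fold and the p-value under the Poisson model, and 100% of pileups came out whole within a relative tolerance of 0.0001. The scripts were checked on simulated data.

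Gene spans came from a RefSeq table of the same assembly. Named summits are each gene's strongest by −log10 q in each list and every summit in 1 list only, or the 3 strongest and a count where these exceed 6. Other summits named were chosen after their values were seen. The members and lists were chosen with earlier results of these data known. Python 3.11, pandas 2.3.3 and scipy 1.17.1 were used. Alternatives changed thresholds, matching, window sizes and the unit. A planned count of motifs was not run, since no genome sequence was used here.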

Additional observations from a re-analysis of the deposited data

How the results depend on the processing

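There were 13 alternative settings, 2 of them chosen after the data were seen (equal coverage and leaving out bi). For the 8 genes with a difference in summits, 84 of 103 values kept its sign and lay within 1.5 times of it. For org-1 and H15 the difference was 0 in all 26. These differences use all summits, so changing the matching rule or leaving out bi cannot alter them. The values under those settings repeat the main ones by construction and say nothing on stability. The 29 brat summits became 19 inside gene spans only, 47 with 10 kb flanks, 19 with peaks as the unit and 10 without bi. The 67 UAS-HA-Zld summits became 39 with peaks as the unit and 29 without bi. A peak counted as a unit only where its strongest summit lay in the window, whereas the 67 summits belong to 41 peaks. The 30 UAS-HA-Zld-only summits became 17 without bi and 10 when unmatched summits beside absent numbers were left out, and the 7 genes that have one became 4 then and 4 inside gene spans only. The number of brat-only summits, 0, became 1 with −log10 q of at least 5, of at least 10 and with equal list lengths, each time the bi summit at 4480205. It became 2 at bi with summits matched within 250 bp. The number of genes with a brat-only summit was 1 in each of these settings. Genes with more UAS-HA-Zld summits fell in number from 7 to 4 inside gene spans only. Genes with fewer numbered 0 with −log10 q of at least 5 or 10, inside gene spans only, with flanks of 2 or 10 kb and with peaks as the unit. The difference at mid, −1 summit, became 1 with −log10 q of at least 10. Fewer summits or a smaller window come from the settings themselves, and other causes were not tested. No paired analysis was possible because each condition has 1 list, and replicates could not be left out for the same reason. The lists allow no statement on weaker binding below their thresholds.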
